A study of Mus musculus with 6 samples.

Results

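Genes that restrain T cells were measured in skin from the inbred mouse strain C3H/HeJ, from hairless areas of mice with alopecia areata, an autoimmune hair loss in which lymphocytes gather around growing follicles, and from unaffected mice. The list holds 10 genes: the checkpoint ligands Cd274 and Pdcd1lg2, the inhibitory receptors Pdcd1, Ctla4, Lag3, Tigit and Havcr2, the enzyme Ido1, and Foxp3 and Ikzf2, transcription factors of regulatory T cells. They were chosen by name, and every probe set whose single gene symbol in the platform annotation was one of these names was taken. This gave 11 of 45037 probe sets for 9 of the 10 genes, out of 18193 genes in all. Ikzf2 had 3 probe sets and the other 8 genes 1 each, while Tigit was not matched to a probe set and is not analysed here. Each group held 3 mice of this inbred strain, which carried no stated transgene or treatment, and each mouse gave total skin RNA for 1 array. The alopecic group was sampled in affected skin, and the series title calls the disease spontaneous. The sources used here give no age, sex, body site, hair cycle stage or batch.

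Inhibitory checkpoints are pairs of a receptor on a lymphocyte and a ligand on the cell it meets, and they weaken T cell activation once bound. PD-L1, encoded by Cd274, and PD-L2, encoded by Pdcd1lg2, both bind the receptor PD-1, encoded by Pdcd1, and interferon gamma is a known inducer of Cd274 and of Ido1, which degrades tryptophan. Regulatory T cells depend on Foxp3, carry much CTLA-4, and in skin lie close to hair follicles.

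Cd274 and Pdcd1lg2 are neighbours on mouse chromosome 19 in the RefSeq annotation and encode the ligands of PD-1. The 250 bases before the annotated start of each are shown to set the sequence context of these neighbours side by side. They come from RefSeq sequence of the build GRCm38.p6, at chr19:29367188-29367437 on the plus strand for Cd274 and at chr19:29410669-29410918 on the plus strand for Pdcd1lg2, and capitals mark a match, on either strand, to the IRF core AANNGAAA or to a relaxed interferon response element, GAAANNGAA, motifs that can overlap.
Cd274: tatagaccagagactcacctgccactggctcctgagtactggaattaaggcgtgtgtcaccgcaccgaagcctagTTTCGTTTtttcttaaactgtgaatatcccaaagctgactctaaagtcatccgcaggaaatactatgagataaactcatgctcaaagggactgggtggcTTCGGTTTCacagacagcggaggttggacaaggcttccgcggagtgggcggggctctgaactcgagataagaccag
Pdcd1lg2: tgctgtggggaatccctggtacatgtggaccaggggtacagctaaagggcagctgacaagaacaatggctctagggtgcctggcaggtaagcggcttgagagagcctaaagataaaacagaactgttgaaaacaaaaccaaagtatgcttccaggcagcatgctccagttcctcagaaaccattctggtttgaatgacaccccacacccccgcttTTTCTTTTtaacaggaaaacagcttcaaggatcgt
The IRF core matched once in each stretch, on the minus strand, at bases -175 to -168 before the start of Cd274 and at -35 to -28 before that of Pdcd1lg2. The relaxed response element matched at -76 to -68 of Cd274, also on the minus strand, and nowhere in that of Pdcd1lg2. The core was present in 21.3% and the element in 7.13% of 32851 such stretches in the RefSeq table. A stricter element with 1 further A at its end, in 2.98% of stretches, matched none of these genes, and the relaxed form was chosen after that was seen. Promoters were matched for 7 of the 10 genes. Pdcd1 and 1 of the 2 listed starts of Foxp3 also held the core, Ctla4 held the element, and the other Foxp3 start held the motif TTCNNNGAA of STAT factors, which 7.02% of stretches hold. No match to the NF-kB motif GGNNNTTCC, which 15.7% hold, was present in the stretches of these genes. The matches describe letters in these windows only.

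The array medians lay between 6.11 and 6.17 on the log2 scale, and a value below them is called dim here, since RMA compresses differences between dim signals. The 9 measured skin genes, of which Krt10 and Krt14 were the brightest, had a mean between 12.68 and 13.27 in every array. Unaffected replicate 3 stood apart: over all genes 42.2% of the squared distance of arrays to their group mean lay in it, and the mean of 8 hair shaft keratin genes was 5.46 there, against 12.73 and 13.65 in the other unaffected arrays and 10.55 to 11.52 in alopecic arrays. The brightest of the 8 by mean, Krt33a and Krt31, were at 5.09 and 5.92 in that array. The difference between the groups was tested gene by gene with limma, and 50 of 18193 genes, 0.275%, passed a Benjamini-Hochberg adjusted p of 0.05; 48 of them (0.264%) rose and 2 (0.011%) fell. Of the 9 measured checkpoint and regulatory genes 0 passed, as did 0 of their 11 probe sets in the fit of all probe sets, where 0.142% passed. An unadjusted limma p under 0.05 was found for 2 of the 9, Cd274 and Ido1, against 7.15% of all genes. In 5 of the 9, Cd274, Pdcd1lg2, Havcr2, Ido1 and Foxp3, every alopecic array lay above every unaffected array, against 6.93% of all genes, and in none of the 9 were all alopecic arrays lower, against 6.12%. Their median log2 difference was 0.37, and that of all genes was -0.01.

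**Figure D1:**
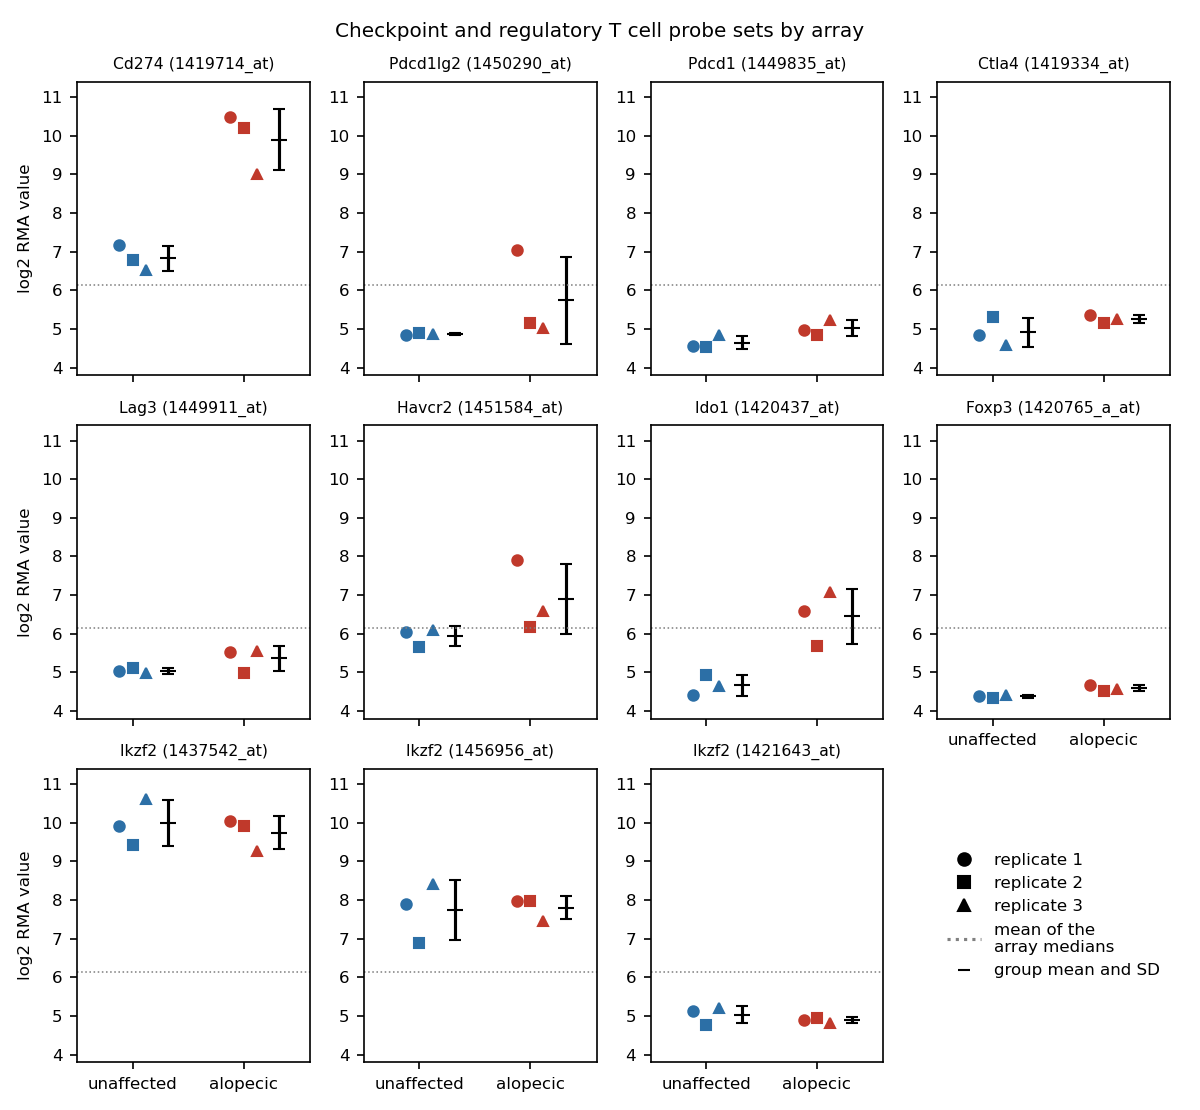
Log2 RMA value of each of the 11 probe sets in the 3 unaffected (blue) and 3 alopecic (red) arrays, with group mean and SD and, as a dotted line, the mean of the array medians. Cd274 lies between 9.00 and 10.49 in alopecic and between 6.52 and 7.17 in unaffected arrays, while Pdcd1, Ctla4, Lag3 and Foxp3 stay below the line in all 6 arrays.

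Cd274, the ligand PD-L1, had the largest difference of the list. Its log2 value was 10.49, 10.20 and 9.00 in alopecic replicates 1, 2 and 3, and 7.17, 6.79 and 6.52 in unaffected replicates 1, 2 and 3. The lowest alopecic array, replicate 3, lay well above the highest unaffected one, and all 6 values were above the array medians. The difference was 3.07 (SE 0.42), or 8.41-fold with an unadjusted 95% interval of 4.10 to 17.2, and its adjusted p of 0.0831 missed the threshold. It ranked 41 among 18193 genes by size of the rise in value and 84 by limma p. The call depended on single arrays: without alopecic replicate 3 the difference was 3.52 (adjusted p = 0.0456), and when another array was left out it ran from 0.175 to 0.353. A filter that dropped genes with a mean below the median gave 0.0476.

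Pdcd1lg2, the ligand PD-L2, was high in 1 alopecic array. Its log2 value was 7.04, 5.16 and 5.02 in alopecic replicates 1, 2 and 3, against 4.85, 4.90 and 4.87 in unaffected replicates 1, 2 and 3. Replicate 1 of the alopecic group was the only one of the 6 arrays in which this probe set was not dim, and the other alopecic values exceeded the unaffected ones by small steps. The difference was 0.87 (SE 0.55), or 1.82-fold with an interval of 0.714 to 4.66 (adjusted p = 0.845), and without alopecic replicate 1 it was 0.22 (adjusted p = 0.696). Since this signal was dim in 5 arrays and that of Cd274 in none, their differences were not compared. The other flanking genes, Plgrkt and Ric1, differed by 0.42 (SE 0.22) and 0.12 (SE 0.12), with limma adjusted p of 0.800 and 0.881.

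**Figure D2:**
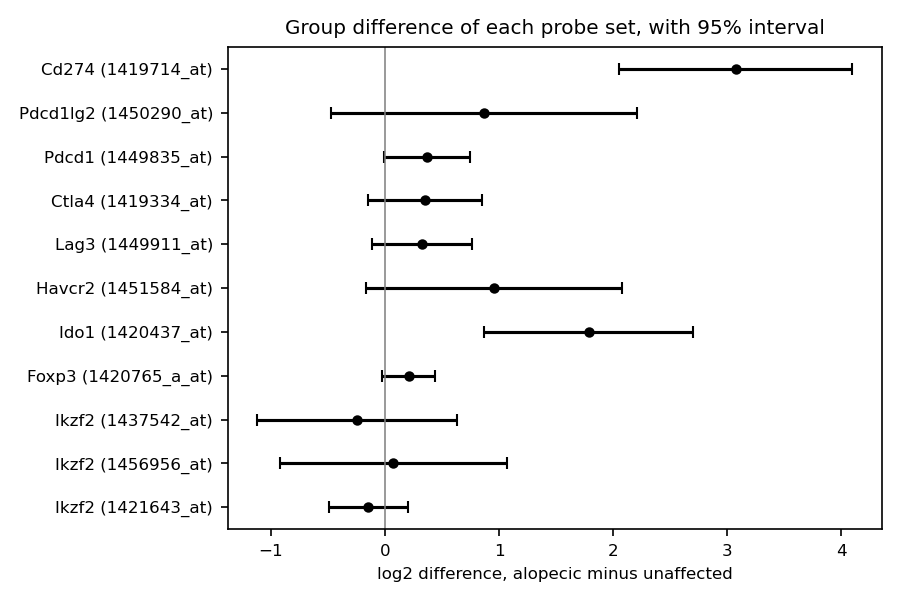
Log2 difference of each probe set, alopecic minus unaffected, with its unadjusted 95% interval from the fit of all probe sets. The intervals of Cd274 and Ido1 lie above 0, and those of the other 9 probe sets include 0.

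Pdcd1, which encodes PD-1, was dim in all 6 arrays. Its log2 value was 4.97, 4.84 and 5.24 in alopecic and 4.57, 4.53 and 4.84 in unaffected replicates 1, 2 and 3. The groups overlapped, as the lowest alopecic and the highest unaffected value were both 4.84. The difference was 0.37 (SE 0.16), or 1.29-fold with an interval of 0.986 to 1.69 (adjusted p = 0.736).

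Ctla4 encodes CTLA-4, which competes with CD28 for the ligands CD80 and CD86. Its log2 value was 5.36, 5.16 and 5.25 in alopecic and 4.85, 5.31 and 4.57 in unaffected replicates 1, 2 and 3. The unaffected arrays spread more widely than the alopecic ones, and replicate 2 of the unaffected group lay above 2 of the alopecic arrays. The difference was 0.35 (SE 0.21), or 1.27-fold with an interval of 0.894 to 1.81 (adjusted p = 0.838). It was 0.18 without unaffected replicate 3 and 0.55 without unaffected replicate 2 (adjusted p = 0.803 and 0.693). On chromosome 1 Ctla4 lies between Cd28 and Icos, a related receptor that promotes T cell help. The difference of Icos was 1.49 (SE 0.27, adjusted p = 0.186) and that of Cd28 was -0.02 (SE 0.18, adjusted p = 0.987). Ctla4 and Cd28 were dim in all 6 arrays and Icos in 1, so their differences are not set against each other. The 2 other probe sets of Icos differed by 1.15 and 0.88, and the other probe set of Cd28 by 0.23.

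Lag3, an inhibitory receptor that binds MHC class II, had log2 values of 5.54, 4.99 and 5.57 in alopecic and 5.03, 5.12 and 4.97 in unaffected replicates 1, 2 and 3. Alopecic replicate 2 lay within the unaffected range and the other alopecic arrays above it, all of them dim. The difference was 0.33 (SE 0.18), or 1.25-fold with an interval of 0.917 to 1.71 (adjusted p = 0.833), and without alopecic replicate 2 it was 0.51 (adjusted p = 0.546). The neighbouring gene Cd4, a co-receptor of helper T cells to which Lag3 is related, was dim in 4 of the 6 arrays and differed by -0.16 (SE 0.12, adjusted p = 0.859).

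Havcr2 encodes TIM-3, found on exhausted T cells and on macrophages and dendritic cells. Log2 values were 7.91, 6.17 and 6.60 in alopecic and 6.06, 5.65 and 6.11 in unaffected replicates 1, 2 and 3. The groups did not overlap, though alopecic replicate 2 exceeded the highest unaffected array by little. The difference was 0.96 (SE 0.46), or 1.94-fold with an interval of 0.886 to 4.25 (adjusted p = 0.778), and without alopecic replicate 1 it was 0.45 (adjusted p = 0.680).

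Alopecic replicate 1, in which Pdcd1lg2 and Havcr2 were highest, also had the highest levels of both leukocyte marker lists. The mean log2 value of 15 T cell genes was 8.22, 7.51 and 7.46 in alopecic and 6.77, 6.73 and 6.81 in unaffected replicates 1, 2 and 3. The mean of 16 macrophage and dendritic cell genes was 8.25, 7.03 and 7.42 in alopecic and 7.58, 7.85 and 6.85 in unaffected replicates. The T cell means did not overlap between the groups and the myeloid means did. Of the T cell genes 0 of 15 passed the limma test, and 10 had an unadjusted p under 0.05. In 11 all alopecic arrays were higher and in 1, Cd4, all were lower, with a median difference of 0.89 over the list. The corresponding myeloid counts were 0, 1, 2 and 0 of 16, with a median of 0.27. Over all genes the shares were 0.275%, 7.15%, 6.93% and 6.12%, to be set beside the counts of the later lists too. The brightest genes of the T cell list, Bcl11b and Thy1, differed by 0.76 (SE 0.31) and 1.09 (SE 0.37). Their means in the unaffected group, 11.12 and 9.37, were above the list mean of 6.77 there, and which skin cells gave this signal was not tested. The brightest myeloid genes, Csf1r and Lyz2, differed by 0.10 (SE 0.41) and 0.35 (SE 0.63). Directions in the myeloid list were mixed: 12 of 16 differences were positive, and they ran from -1.08 (Cd209a) to 1.66 (Itgax). The deposited values carry no detection calls. In whole skin, more cells of a type and more RNA per cell cannot be told apart, and the part of cell content in these differences was not tested.

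**Figure D3:**
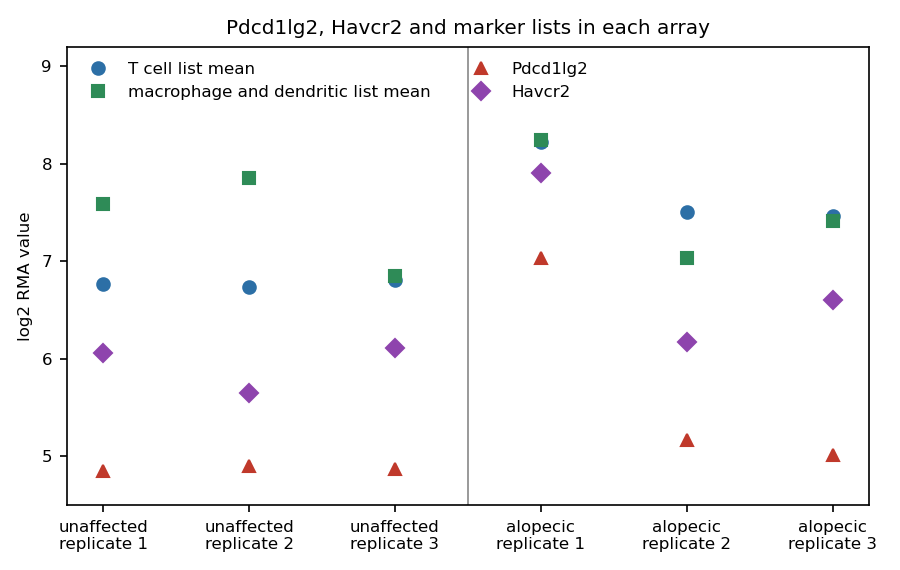
Log2 RMA values of Pdcd1lg2 and Havcr2 and the mean log2 values of the T cell and myeloid marker lists in each of the 6 arrays; levels are to be compared between arrays, not between symbols. All 4 were highest in alopecic replicate 1, where Pdcd1lg2 was 7.04 and Havcr2 7.91.

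Ido1, the first enzyme of tryptophan breakdown along the kynurenine route, had the second largest difference of the list. Log2 values were 6.59, 5.68 and 7.09 in alopecic and 4.41, 4.94 and 4.64 in unaffected replicates 1, 2 and 3. The groups did not overlap, and the unaffected arrays and alopecic replicate 2 were dim. The difference was 1.78 (SE 0.38), or 3.45-fold with an unadjusted interval of 1.81 to 6.57, and it did not pass (adjusted p = 0.297). With each array left out in turn it ran from 1.47 to 2.17 (adjusted p from 0.121 to 0.646). The adjacent gene Ido2, a related enzyme, was dim in all 6 arrays, between 3.78 and 4.13, and differed by 0.11 (SE 0.13, adjusted p = 0.898). Tdo2, which opens the same route in liver, and Kynu, further along it, were dim in all 6 arrays as well and differed by 0.10 (SE 0.17) and 0.02 (SE 0.11).

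**Figure D4:**
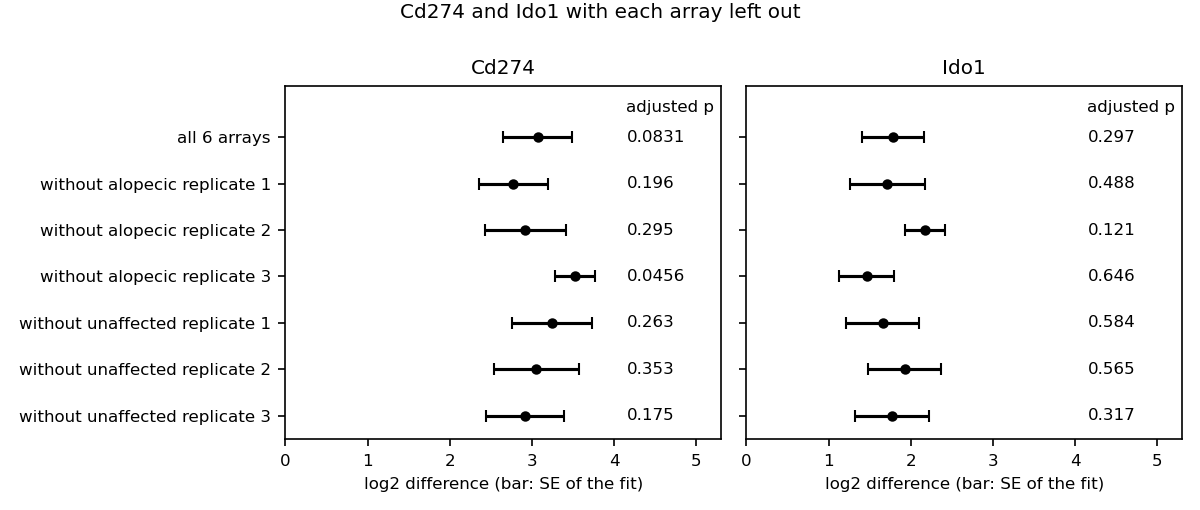
Log2 difference of Cd274 and of Ido1, with the SE of the fit as bars, over all 6 arrays and with each array left out; the limma adjusted p is printed at the right. The difference of Cd274 ran from 2.78 to 3.52 and passed without alopecic replicate 3, and that of Ido1 ran from 1.47 to 2.17 and did not pass.

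Foxp3, which defines regulatory T cells, was dim and nearly flat. Log2 values were 4.68, 4.53 and 4.57 in alopecic and 4.39, 4.35 and 4.42 in unaffected replicates 1, 2 and 3. Every alopecic array was above every unaffected one, by small steps. The difference was 0.21 (SE 0.10), or 1.15-fold with an interval of 0.972 to 1.37 (adjusted p = 0.784). Values this dim are compressed by RMA, so the interval holds for the deposited scale and does not bound the change in RNA.

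Ikzf2 encodes Helios, found in many regulatory T cells but also in other cell types. Its brightest probe set had log2 values of 10.05, 9.92 and 9.26 in alopecic and 9.91, 9.43 and 10.61 in unaffected replicates 1, 2 and 3. The groups overlapped, and the highest value was that of unaffected replicate 3, the array in which the hair shaft genes were lowest; the part of that array's state in the result was not tested. The difference was -0.24 (SE 0.36), with a fold of 0.845 and an interval of 0.457 to 1.56 (adjusted p = 0.915), and without unaffected replicate 3 it was 0.07 (adjusted p = 0.964). The next brightest probe set had values of 7.98, 7.98 and 7.46 in alopecic and 7.89, 6.89 and 8.42 in unaffected replicates, a difference of 0.07 (SE 0.41). The dimmest probe set was dim in all arrays, between 4.78 and 5.20, and differed by -0.14 (SE 0.14). Both brighter probe sets were highest in unaffected replicate 3.

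The genes that were not dim in every array were also set against the T cell markers, as the log2 value minus the T cell list mean of the same array. For Cd274 this was 2.16 ± 0.58 (SD, n = 3) in the alopecic group and 0.05 ± 0.34 (SD, n = 3) in the unaffected group, a change of 2.11 with no overlap. For Ido1 it was -1.28 ± 0.79 and -2.11 ± 0.29 (SD, n = 3), a change of 0.82 with overlap. For Havcr2 the change was -0.005 and for Pdcd1lg2 it was -0.09, both with overlap. For Ikzf2 it was -1.20, made up of its own difference of -0.24 less the difference of 0.96 in the T cell mean, which is taken from every gene on this measure. These values were not tested, and Havcr2, Ido1 and Pdcd1lg2 were dim in 3, 4 and 5 of the 6 arrays. The T cell mean also held dim genes, as Cd247, Cd5 and Cd28 were dim in all 6 arrays. It held Bcl11b and Thy1 as well, which were bright in unaffected skin and may not read T cells alone. Genes of that list dim in no array differed by 0.23 (Zap70) to 1.80 (Cd3d). The other probe sets of Zap70, dim in 5 and 3 arrays, differed by 0.95 and 0.33. The size of the changes on this measure thus depends on the markers averaged. Pdcd1, Ctla4, Lag3 and Foxp3, dim in all arrays, are not read on this measure.

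A list of partners of these genes, which also holds relatives such as Cd276, was examined next. Of 19 measured ligands, receptors and related enzymes 0 passed the limma test and 3 had an unadjusted p under 0.05, all higher; the median difference was -0.002 and 4 of the 19 had no overlap. The genes named by rule, the brightest, were Lgals3, a lectin reported to bind LAG-3, at -0.13 (SE 0.16), and Nectin3, an adhesion molecule, at -0.75 (SE 0.54). The remaining genes of this list named here were chosen after their values were seen. The 3 with an unadjusted p under 0.05 were Lgals9, a lectin that binds TIM-3, at 1.59 (SE 0.51, adjusted p = 0.578), Cd86, a ligand of CTLA-4 and CD28, at 1.03 (SE 0.36, adjusted p = 0.618; 0.61 for its other probe set, whose groups overlapped), and Cd276, which encodes the B7-family protein B7-H3, at 0.88 (SE 0.18, adjusted p = 0.271). Lgals9 had 9.80, 8.25 and 8.16 in alopecic and 7.66, 6.71 and 7.07 in unaffected replicates 1, 2 and 3, so that replicate 1 was again the highest. Cd276 had 7.90, 8.34 and 7.75 against 7.17, 7.20 and 7.00, with replicate 2 the highest. Cd80, the other ligand of CTLA-4, was dim in all 6 arrays and differed by -0.05 (SE 0.11). Pvr, the chief ligand of TIGIT, differed by -0.15 (SE 0.16), and Cd96 and Cd226, the other receptors of that group, by 0.59 (SE 0.24) and 0.12 (SE 0.10). Cd96 was dim in 5 arrays and Cd226 in all 6, so the small differences of Cd80 and Cd226 do not bound the change in RNA.

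Of 21 other inhibitory receptors, ligands and mediators 0 passed and 9 had an unadjusted limma p under 0.05; in 9 all alopecic arrays were higher, in 1 all were lower, and the median was 0.27. Cd47, the brightest, a signal against engulfment, differed by 0.25 (SE 0.28), and Nt5e, the enzyme CD73 that makes adenosine, by -0.81 (SE 0.21, adjusted p = 0.454). Nt5e had 10.01, 9.36 and 9.48 in alopecic and 10.37, 10.29 and 10.61 in unaffected replicates 1, 2 and 3, the 1 gene of this list with every alopecic array lower. Its other probe sets differed by -0.98 and -0.14. The largest difference, chosen after the values were seen, was that of Klrc1, which encodes the inhibitory receptor NKG2A of NK and CD8 T cells, at 2.50 (SE 0.35, adjusted p = 0.0917). Klrc1 had 7.85, 6.88 and 6.60 in alopecic and 4.81, 4.31 and 4.73 in unaffected replicates. A dimmer probe set of Klrc1 differed by 0.94.

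Of 20 other genes used to describe regulatory T cells 0 passed and 10 had an unadjusted limma p under 0.05. In 11 all alopecic arrays were higher, in 1, Nt5e, all were lower, and the median difference was 0.37. This list was drawn up with results of these arrays known and shares Nt5e, Entpd1 and Il10 with the preceding list, so its counts are no independent evidence. Capg, an actin capping protein, differed by 0.72 (SE 0.25, adjusted p = 0.627). The genes named next were chosen after the values were seen, and other activated or tissue T cells also express most of them. The largest differences were those of Itgae, Il2rb and Icos, the last given above. Itgae, the integrin chain CD103 of lymphocytes in epithelium, had 10.98, 9.64 and 9.65 in alopecic and 7.27, 7.41 and 7.28 in unaffected replicates 1, 2 and 3, a difference of 2.76 (SE 0.38, adjusted p = 0.0843). Its other probe set differed by 2.34. Il2rb, a chain of the receptors of interleukin-2 and interleukin-15, differed by 1.65 (SE 0.29, adjusted p = 0.177), and its dim other probe set by 0.19. Tnfrsf9 and Tnfrsf18, which encode the costimulatory receptors 4-1BB and GITR, differed by 0.79 (SE 0.13, adjusted p = 0.138) and 0.71 (SE 0.12, adjusted p = 0.147). The other probe sets of Tnfrsf9 differed by 0.62 and -0.01. Ikzf4, which encodes the Helios relative Eos, had 6.65, 6.57 and 6.34 against 5.90, 5.84 and 6.09, a difference of 0.57 (SE 0.14, adjusted p = 0.374), and its other probe sets differed by 0.32 and 0.01. Il2ra, the receptor chain CD25, was dim in all 6 arrays and differed by 0.65 (SE 0.22, adjusted p = 0.614) and its other probe set by -0.01. Il10, an inhibitory cytokine, and Ccr8, a chemokine receptor of skin regulatory T cells, were dim and differed by 0.27 (SE 0.12) and -0.02 (SE 0.13). The groups overlapped in 8 genes of this list, Ccr8 among them. The others were Ebi3 at 0.29 (SE 0.22), Entpd1 at 0.21 (SE 0.38), Prdm1 at 0.07 (SE 0.98) and Nrp1 at 0.03 (SE 0.09). The other probe sets of Nrp1, dim in no array, differed by -0.21, -0.23 and -0.29, and in that at -0.23 all alopecic arrays were lower. Those of Entpd1 differed by 0.17 and 0.55. Izumo1r at 0.07 (SE 0.10), Gpr83 at -0.07 (SE 0.14) and Ccr4 at -0.21 (SE 0.13) were dim in all 6 arrays.

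**Figure D5:**
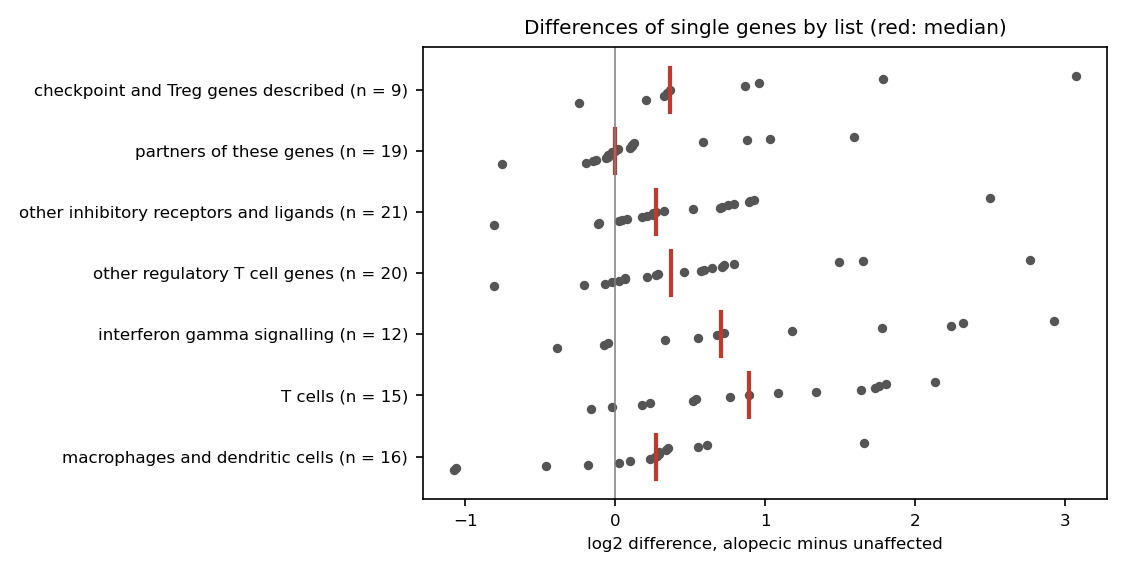
Log2 differences, alopecic minus unaffected, of single genes in the checkpoint and regulatory T cell list and in 6 comparison lists, 1 point per gene, with the list median as a red line. The medians are 0.37 for the 9 genes described, -0.002 for the list of their partners and relatives, 0.27 for other inhibitory genes and 0.89 for T cell markers.

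Interferon gamma signalling held the genes of these lists that passed the test. Of its 12 measured genes 2 rose, and 6 had an unadjusted limma p under 0.05. Irf1, a transcription factor that binds interferon response elements, had 11.82, 11.61 and 11.60 in alopecic and 8.50, 8.84 and 8.90 in unaffected replicates 1, 2 and 3, a rise of 2.93 (SE 0.15, adjusted p = 0.00607). It passed in 5 of the 6 gene fits with 1 array left out and missed the threshold without unaffected replicate 2 (adjusted p = 0.0679). In the fits of all probe sets it passed with all 6 arrays (limma adjusted p = 0.00794) and in 2 of the 6 with 1 array left out. Ifng rose by 2.24 (SE 0.25, adjusted p = 0.0494), from dim unaffected values of 4.54, 4.86 and 4.86 to 7.51, 6.76 and 6.69. In the fit of all probe sets its adjusted p was 0.0658, and of the gene fits with 1 array left out it passed only without alopecic replicate 1 (adjusted p = 0.0475, against 0.104 to 0.233 in the others). The receptor chains Ifngr1 and Ifngr2 differed by -0.39 (SE 0.30) and -0.07 (SE 0.23), and the feedback inhibitor Socs1 by 1.18 (SE 0.34, adjusted p = 0.516).

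The genes whose pattern over the 6 arrays was most like that of each described gene were taken by Pearson correlation, given as a description. The arrays form 2 groups, so a high r reflects the group difference as well as the spread within groups. For Cd274 they were 2610528A11Rik (r = 0.998), the antibody receptor and ubiquitin ligase Trim21 (r = 0.997) and Ndufa4l2 (r = 0.994), which differed by 4.38, 1.59 and 1.85. For Ido1 they were Tfe3 (r = 0.997), the cytidine deaminase Apobec3 (r = 0.993) and the cell death gene Pmaip1 (r = 0.992), and for Foxp3 they were Vasp (r = 0.994), Cd8a (r = 0.991) and Il18bp (r = 0.991). Havcr2 was most like Csf2ra and Cd96 (r = 0.987 each) and Sema6d (r = 0.983). Pdcd1lg2 was most like the leukocyte receptor Adgre5 (r = 0.993), Plppr4 (r = 0.991) and Fam71b (r = 0.991). For Lag3 the nearest were the kinase Syk (r = 0.993), Angptl8 (r = 0.988) and Shf (r = 0.983), for Ctla4 Sirpa and Sin3b (r = 0.990 each) and F2rl2 (r = 0.986), and for Pdcd1 Slc5a9 (r = 0.996), Psmd2 (r = 0.985) and Rtkn (r = 0.976). Ikzf2 was most like 2610005L07Rik (r = 0.998), Dppa2 (r = 0.993) and Zfp9 (r = 0.992), which differed by -0.14, -0.05 and -0.14. Over 6 arrays such values are common, as 284 genes had an r over 0.9 with Cd274 and 497 with Ikzf2.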

How the data were processed

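The values are log2 expression per probe set as deposited by the authors, made with RMA per the submitters' processing notes; its software and version are not given. RMA removes background, equalises the arrays and combines the probes of a set, so values are relative. Per the labels' protocols, total RNA was purified with on-column DNase digestion and labelled with biotin from the 3' end. The table held 45101 probe sets, 64 of them controls; 34945 had 1 symbol, of which 34741 were updated through RefSeq gene identifiers. The brightest probe set stood for a gene. Alopecic and unaffected arrays were compared with limma 3.58.1 in R 4.3.3 (lmFit, eBayes, two-sided, Benjamini-Hochberg over 18193 genes or 45037 probe sets), and "rose" refers to an adjusted p under 0.05. The fit was run on simulated data in which 200 genes were changed by 5 log2 units. That exceeds the differences of the genes described, so the run does not show the power of the fit for them. Differences carry the fit's standard error. Arrays have no read depth, and 3 per group limit the precision. The genes and lists were chosen with earlier results of these data known. Of the lists' genes, those past the threshold (up to 4) or the 2 with the highest mean are named by rule, with the 3 genes most like each described gene. Other named genes, some of them chosen after their values were seen, follow no such rule. Alternatives left out each array and changed normalization, filter, spread model and probe set rule.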

Additional observations from a re-analysis of the deposited data

How the results depend on the processing

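Over the alternative settings, 235 differences of the 9 genes and their 11 probe sets were fitted, and 230 kept the main direction. These are not independent, as a gene with 1 probe set entered as gene and as probe set. The replicate block, the spread model with a trend and the filter left each difference unchanged, so its direction could not turn there. The exceptions were Ikzf2 without unaffected replicate 3 (0.0691, with -0.519 to 0.0691 over the fits that leave out 1 array, for the gene and its brightest probe set) and its next brightest probe set (-0.348 to 0.418 over those fits), at -0.01 without alopecic replicate 1, -0.01 without alopecic replicate 2 and -0.35 without unaffected replicate 2. Of the 9 genes 1, Cd274, passed without alopecic replicate 3, where 17 of all 18193 genes passed. With a filter that dropped genes of a mean below the median 1, Cd274, passed, and 61 of all genes left did. That filter kept only Cd274 and Ikzf2 of the 9 genes. In the other fits 0 of the 9 passed, and no probe set of these genes passed in any fit. The number of all genes called was 50, and ran from 4 to 39 with 1 array left out, where fewer arrays were fitted; that of probe sets was 64, and ran from 0 to 68. With array weights 139 genes and 187 probe sets were called, and with dim probe sets left out 97 probe sets; the cause was not tested. With the replicate number as a block 0 genes and 0 probe sets were called, and Cd274 had an adjusted limma p of 0.190. The labels share replicate numbers, but the deviations of same-numbered arrays correlated at -0.13, -0.20 and -0.33, so the numbers were not taken as pairs. Dim signals limit Pdcd1, Ctla4, Lag3 and Foxp3 most. The same alternatives were run for Irf1 and Ifng after seeing the data: Irf1 passed in 11 of 13 gene fits, not with the replicate block (adjusted p = 0.144), and Ifng in 4 of 12 (adjusted p from 0.0119 to 0.375). In the probe set fits Irf1 passed in 7 of 12 and Ifng in 2 of 11.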
